A study of Mus musculus with 14 samples.

Results

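Collagens are the proteins that give the heart wall its fibrous scaffold, and their genes were followed here through pressure overload in wild-type (WT) mice and in mice with a more active pacemaker channel. Of the 49315 genes in the table of counts, 44 have a name of the form Col, number, a, number, which is how mouse collagen chains are named. The 36 with at least 10 counts in at least 2 libraries were kept. By the structure that each chain builds they were grouped as 9 fibrillar chains, 8 chains of basement membranes, 7 fibril-associated chains (FACIT), 2 chains of the hexagonal network of type VIII and 10 others. RNA came from the left ventricle of male mice, and 14 libraries were analysed. There were 4 libraries each of WT-Sham, HCN4F-Sham and HCN4F-TAC, and 2 of WT-TAC, which carry replicate numbers 2 and 3. The study calls them biological replicates. HCN4F mice carry a knock-in in exon 4 of Hcn4, the main pacemaker channel of the sinoatrial node, which replaces a tyrosine by phenylalanine and makes the channel open more readily. It is a germline change in the whole animal, and the channel is expressed mostly outside the working ventricle. Transverse aortic constriction (TAC) narrows the aorta and loads the left ventricle with pressure, and Sham mice had surgery without the constriction. Mice were operated at 10 to 12 weeks of age and studied 5 weeks later.

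A collagen molecule contains a triple helix of 3 chains, held together by a glycine that recurs throughout the helical part of each chain. Fibrillar collagens (types I, III, V and others) assemble into the cables that carry tension, FACIT collagens decorate the surface of those cables, and type IV collagen forms the sheets of basement membrane around capillaries and cardiomyocytes. Cardiac fibroblasts are the main source of fibrillar collagen, and endothelial and mural cells contribute much of type IV. Pressure overload is known to raise collagen production in the ventricle.

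Many of the chains share a gene structure that the choice by name did not use. Among their inner coding exons, which are those between the first and the last coding exon of the longest coding transcript, 62.7% of 1599 had a length that is a multiple of 9 bases, against 13.4% of 122851 in the tested genes that are no collagen. In the fibrillar chains the share was 83.2%, and 48.0% of their inner exons were exactly 54 bases long, against 0.414% in the other genes. Such an exon holds 6 repeats of 3 codons, and in 363 of the 374 exons of 54 bases in the 36 genes the first codon of every repeat was GGN, the codon of glycine. Exons of 54 bases were less frequent outside the fibrillar class, at 24.2% of inner exons in FACIT chains, 4.43% in basement membrane chains and 7.67% in the class of others. Col12a1 held only 4 among 63 inner exons. The 6 exons printed here show this repeat in 4 fibrillar and 2 FACIT chains described below. Each is the first coding exon of that length with the full repeat in its gene, read 5′ to 3′ on the gene's strand, and the capitals mark the GGN codon that opens each repeat. They lie on GRCm38 at chr11:94939904-94939957 (Col1a1, plus strand), chr1:45325360-45325413 (Col3a1, plus), chr1:45434892-45434945 (Col5a2, minus), chr3:114108281-114108334 (Col11a1, plus), chr4:121043696-121043749 (Col9a2, plus) and chr9:79614349-79614402 (Col12a1, minus).
Col1a1: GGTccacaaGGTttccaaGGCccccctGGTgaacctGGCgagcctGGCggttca
Col3a1: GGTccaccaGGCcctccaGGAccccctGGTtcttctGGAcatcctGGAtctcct
Col5a2: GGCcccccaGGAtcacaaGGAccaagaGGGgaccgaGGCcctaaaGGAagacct
Col11a1: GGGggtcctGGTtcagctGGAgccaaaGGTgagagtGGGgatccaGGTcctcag
Col9a2: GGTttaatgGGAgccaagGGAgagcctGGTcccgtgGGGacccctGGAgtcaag
Col12a1: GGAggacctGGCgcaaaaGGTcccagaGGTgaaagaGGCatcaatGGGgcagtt

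**Figure D1:**
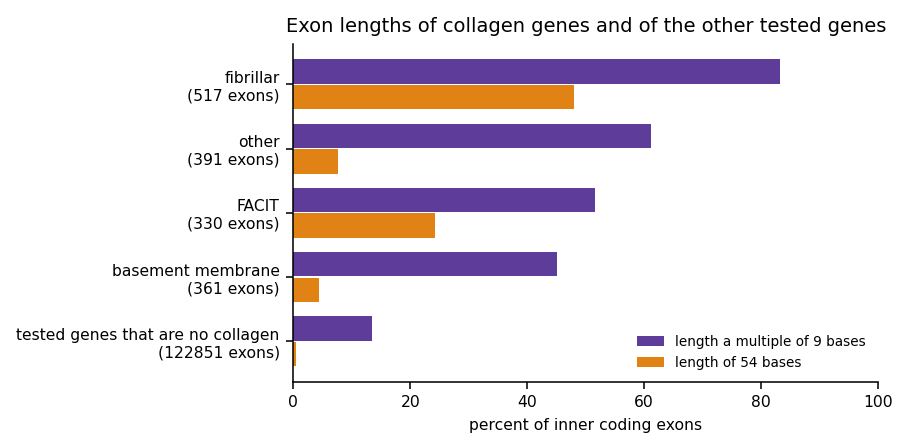
Percent of inner coding exons (x axis) whose length is a multiple of 9 bases (purple) or exactly 54 bases (orange), for 4 classes of collagen genes and for the tested genes that are no collagen. The fibrillar chains stand highest on both measures, at 83.2% and 48.0%. The network chains are not drawn because Col8a1 and Col8a2 have 2 coding exons each and so no inner exon.

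The 2 type VIII chains are built otherwise, with a longest coding exon of 1904 bases in Col8a1 and 1916 in Col8a2. Type IV shows a further regularity. Its 6 genes form 3 head-to-head pairs, with start sites 21 bases apart for Col4a1 and Col4a2, 72 for Col4a3 and Col4a4 and 1309 for Col4a5 and Col4a6. Within each pair the longest coding exon measured 213 bases in the odd-numbered chain and 287 in the even-numbered chain.

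Promoters were searched for 3 short motifs in the 250 bases before the RefSeq start site (GRCm38.p6), where 28 of the 36 genes had an entry. TATAAA on the gene's strand was found in 3 of 28 (10.7%), against 7.59% of 32851 promoters, CCAAT on either strand in 10 (35.7%, against 33.8%) and GGAATG on either strand in 4 (14.3%, against 12.6%). The shares in collagen genes lay close to those in all promoters. No entry was present for Col1a1, Col4a3, Col5a2, Col9a3, Col12a1, Col14a1, Col22a1 and Col26a1. The 4 windows printed here, the last 120 bases before the start, belong to the abundant chain Col3a1, to Col27a1 and Col8a1, each called in a comparison that follows, and to Col11a1, the rarest of the 36. Capitals mark a motif, and Col27a1 and Col8a1 hold none of the 3 in these windows. The Col27a1 window lies before the RefSeq start but within the gene as GENCODE draws it, and none of the 4 overlaps an annotated exon. They lie at chr1:45311418-45311537 (plus strand), chr3:114030420-114030539 (plus), chr4:63215292-63215411 (plus) and chr16:57754738-57754857 (minus).
Col3a1: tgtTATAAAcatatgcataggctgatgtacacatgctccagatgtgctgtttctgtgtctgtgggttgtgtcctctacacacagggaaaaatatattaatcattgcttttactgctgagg
Col11a1: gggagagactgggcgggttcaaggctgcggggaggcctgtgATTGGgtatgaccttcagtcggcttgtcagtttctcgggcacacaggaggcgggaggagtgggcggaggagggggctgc
Col27a1: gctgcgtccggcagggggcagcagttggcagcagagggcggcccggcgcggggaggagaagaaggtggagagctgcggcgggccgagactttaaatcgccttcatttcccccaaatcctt
Col8a1: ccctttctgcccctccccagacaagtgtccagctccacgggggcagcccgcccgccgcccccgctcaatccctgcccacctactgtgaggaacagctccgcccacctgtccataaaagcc
In Col3a1 the TATAAA starts 117 bases before the start site, and in Col11a1 the capitals show CCAAT as read on the opposite strand, 79 bases before the start.

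Libraries held 22309914 to 35210939 counts, so that 3 counts, the most that a count of 0 allows, equal 0.0852 to 0.134 CPM, which are counts scaled to a common library size of 1000000. This limit covers counting error only. The 36 collagens took 0.216% to 0.228% of the counts in WT-Sham, 0.193% to 0.271% in HCN4F-Sham, 0.277% and 0.296% in WT-TAC, and 0.300% to 0.481% in HCN4F-TAC. Hcn4 itself, whose knock-in changes its sequence and need not change its level, was 8.07 to 10.6 CPM in WT-Sham, 6.36 to 13.0 in HCN4F-Sham, 11.9 and 13.5 in WT-TAC and 3.49 to 9.07 in HCN4F-TAC, so its level does not check the genotype labels. Some libraries stood apart. HCN4F-TAC replicate 3 was the lowest of its group for 30 of the 36 collagens, and HCN4F-Sham replicate 2 the highest of its group for 23. In HCN4F-Sham replicate 2 the endothelial markers summed to 1265 CPM, against 697, 949 and 1072 in replicates 1, 3 and 4. Its epicardial or mesothelial markers summed to 15.2 CPM, against 4.71, 5.93 and 6.22. The part of these cells in its collagen values was not tested. HCN4F-TAC replicate 2 held 1888 CPM of 6 atrial myocyte transcripts, against 73.6 to 186 CPM in the Sham libraries, 199.5 and 249 in WT-TAC and 417 to 1198 in the rest of HCN4F-TAC. This sum was mostly Nppa, the atrial natriuretic peptide, which ventricle under load also expresses. Nppa had 1908 to 55648 counts per library, and none of the other 5 exceeded 735. Among these, Myl4 ranged from 33 to 527 counts, Myl7 from 0 to 301 and Sln from 0 to 115 over the 14 libraries. These ranges do not show which libraries held them, and a share of atrial tissue was not tested. The main markers of ventricular cardiomyocytes were present in every library. Their sum over 6 genes was 73320 to 74959 CPM in WT-Sham, 63391 to 70131 in HCN4F-Sham, 65940 and 67545 in WT-TAC and 51570 to 61406 in HCN4F-TAC. HCN4F-TAC thus lay below all other libraries, and WT-TAC below WT-Sham, and the part of this in the collagen values was not tested. Of the 8 collagens not kept (Col2a1, Col6a4, Col6a5, Col9a1, Col10a1, Col17a1, Col19a1 and Col24a1), none exceeded 7 counts in any library. Just inside the limit were Col9a3 and Col11a1, with 10 or more counts in 3 libraries each and at most 14 and 19 counts. Just outside were Col6a5 and Col17a1, with at most 7. Col11a1 reached 10 counts in no group but HCN4F-TAC.

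In level per length the basement membrane chains led. Averaged over the 14 libraries, Col4a1 stood at 106 CPM per kilobase of exon and Col4a2 at 93.9, followed by Col1a1 (32.6), Col3a1 (26.2), Col6a1 (25.5) and Col15a1 (20.8). The order of Col3a1 and Col6a1 depended on the group, with group means of 20.997 and 21.24 in WT-Sham, 19.8 and 21.5 in HCN4F-Sham, 23.0 and 22.6 in WT-TAC and 39.5 and 35.4 in HCN4F-TAC. Col11a1 was the lowest at 0.0158. The 8 most abundant chains of a library made up 87.7% to 89.7% of its collagen per kilobase. In WT-Sham the summed collagen level was 309 ± 5.63 CPM per kilobase (SD, n = 4), with replicates between 304 and 316. In HCN4F-Sham replicates 1 to 4 it was 293, 374, 260 and 269, which overlaps WT-Sham with a wider spread. In WT-TAC it was 392 and 382, and in HCN4F-TAC 535, 593, 394 and 582. Both groups after TAC therefore lay above every Sham library, and HCN4F-TAC replicate 3 lay beside the WT-TAC libraries while the other HCN4F-TAC libraries stood well above them. In a tissue of mixed cells, a change in the number of cells of a type and a change in the RNA per cell cannot be told apart.

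**Figure D2:**
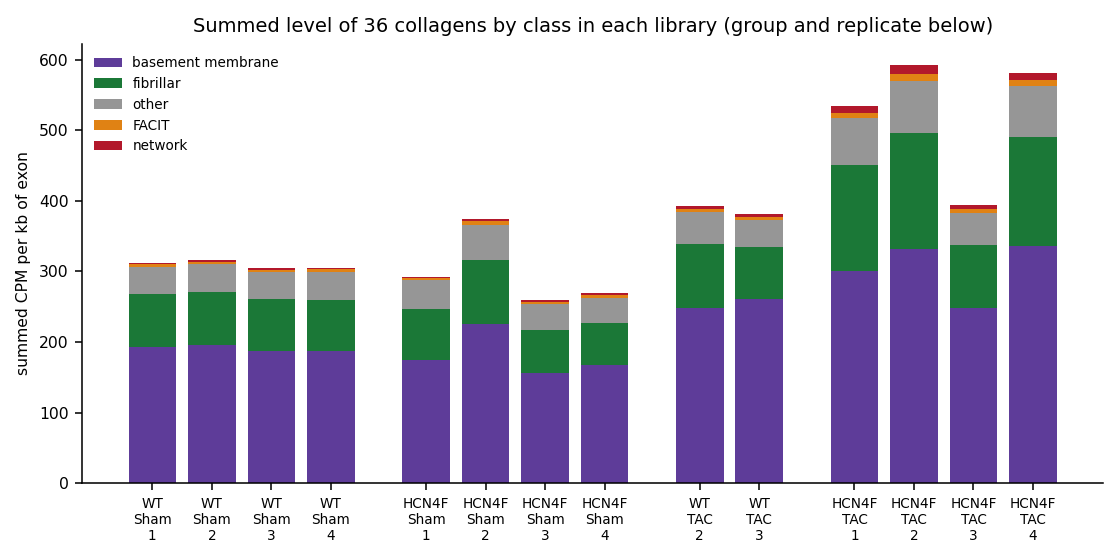
Summed level of the 36 collagens in each of the 14 libraries, in CPM per kilobase of exon (y axis), stacked by class, with group and replicate number under each bar. Basement membrane chains (purple) form the largest share of every bar, and HCN4F-TAC replicates 1, 2 and 4 exceed 530 while replicate 3 reaches 394.

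Basement membrane chains and then fibrillar chains held the largest shares of the collagen pool in every library, and in proportion the small network share differed most. Basement membrane chains formed 61.7% ± 0.323 of the level per kilobase in WT-Sham (SD, n = 4), 60.6% ± 1.17 in HCN4F-Sham (n = 4) and 58.2% ± 3.18 in HCN4F-TAC (n = 4), and 63.2% and 68.4% in the WT-TAC libraries. Fibrillar chains formed 23.8% ± 0.281, 23.6% ± 1.16 and 26.3% ± 2.27 in those groups of 4, against 23.1% and 19.5% in WT-TAC. In HCN4F-TAC replicates 1 to 4 the fibrillar share was 28.0%, 27.6%, 23.0% and 26.6%. The class of others formed 12.6% to 13.0% in WT-Sham, 13.3% to 14.1% in HCN4F-Sham, 11.6% and 9.94% in WT-TAC and 11.5% to 12.5% in HCN4F-TAC. Network chains were a small share throughout, 0.500% to 0.572% in WT-Sham, 0.701% to 1.13% in HCN4F-Sham, 0.924% and 1.16% in WT-TAC and 1.47% to 2.09% in HCN4F-TAC. These ranges of the network share did not overlap between the Sham groups, nor between HCN4F-TAC and any other group. These shares are descriptions without a test.

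The first question was how collagen transcripts answered pressure overload in HCN4F hearts. A gene counted as called when edgeR's quasi-likelihood test gave a Benjamini-Hochberg adjusted p under 0.05 together with a log2 fold change above 1 or below -1. Of the 36 collagens, 10 were called higher after TAC (27.8%), where the background over the 15292 tested genes was 1.58%. They were both network chains (Col8a1 and Col8a2), 4 of 7 FACIT chains (Col9a2, Col12a1, Col14a1 and Col22a1), 3 of 9 fibrillar chains (Col1a1, Col5a2 and Col11a1) and 1 of 8 basement membrane chains (Col4a3). Col6a6 was called lower, where the background was 1.16%. By the adjusted p alone 23 rose (background 7.2%) and 3 fell (6.41%). The median log2 fold change of the 36 was 0.74, against -0.01 over all tested genes. Since Col11a1 passed the filter through HCN4F-TAC alone, the count without it is 9 of 35. Without HCN4F-TAC replicate 2, 7 collagens were called higher (background 1.14%) and 1 lower (0.65%), and without replicate 3 it was 12 (background 2.09%) and 1 (1.5%).

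Markers of other cells moved with this comparison. Of 8 genes of activated fibroblasts, 7 rose by the adjusted p (background 7.2%) and 6 were called (background 1.58%), among them Postn, with summed levels of 273 to 550.1 CPM in HCN4F-TAC, 188 to 296 in HCN4F-Sham, 248 to 297 in WT-Sham and 239.7 and 251 in WT-TAC. HCN4F-TAC replicate 3 was again the lowest of its group in this sum. The 8 general fibroblast markers summed to 1272 to 1581 CPM in HCN4F-TAC and 1274 to 1692 in HCN4F-Sham, ranges that overlap almost entirely. In WT the sum was lower after TAC without overlap, at 1412 and 1158 CPM in WT-TAC against 1509 to 1634 in WT-Sham. With 2 libraries against 4, 20% of all tested genes were lower without overlap. The markers did not fall as a set in WT, where 4 of the 8 had a fitted rise and the median log2 fold change was -0.02. Gsn held most of the sum, with 18966 to 36994 counts per library, and Dcn came next with at most 9597. Of these 8, 3 rose in HCN4F (Lum, Mfap5 and Meox1) and Dpt fell in WT (background 1.62%). Of 6 cardiomyocyte markers, 4 fell (background 6.41%) and Actc1 rose in HCN4F, and 2 of 4 tested atrial markers rose (Nppa and Dkk3). None of the 3 tested epicardial or mesothelial, 6 endothelial, 7 mural and 5 macrophage markers passed the adjusted p after TAC in HCN4F or in WT, by edgeR's test. The part of these cells in the collagen changes was not tested.

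**Figure D3:**
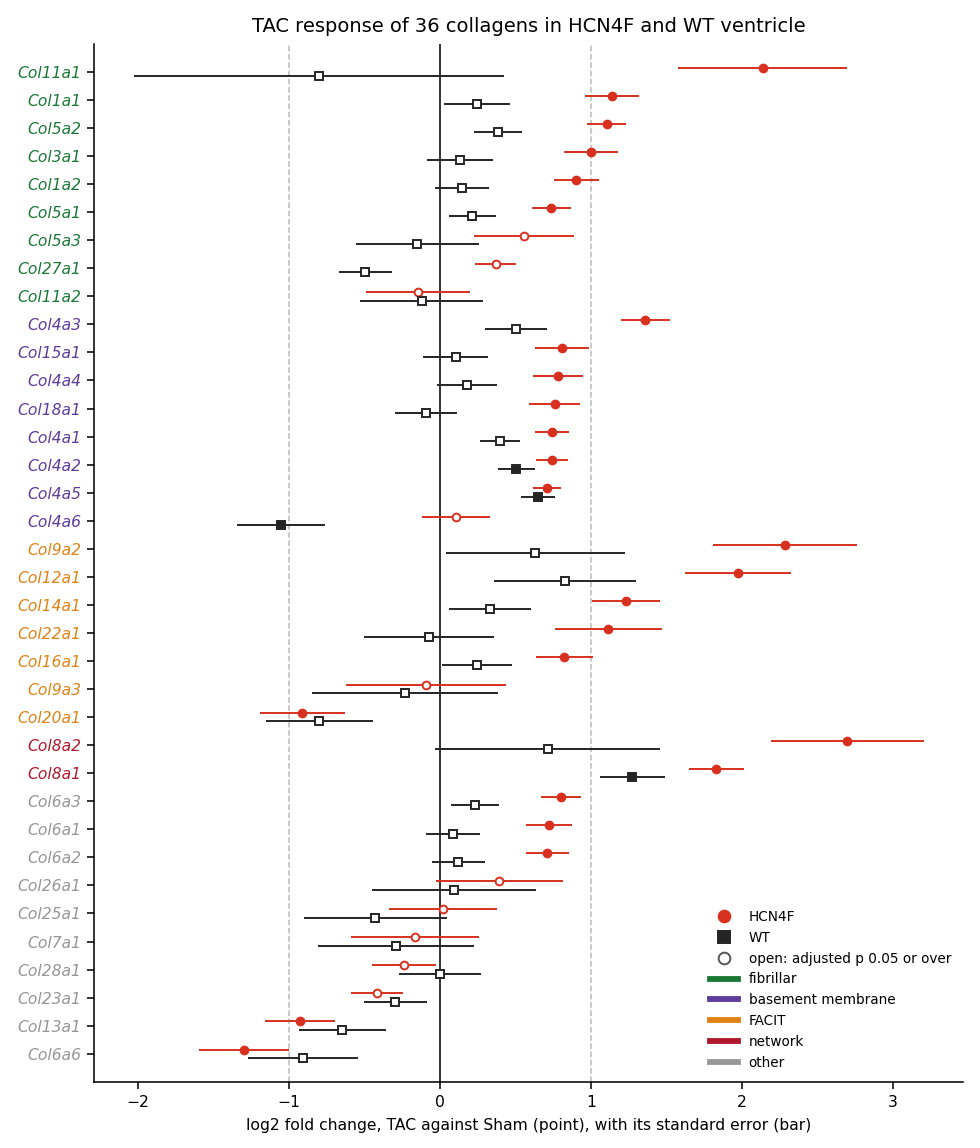
Log2 fold change of each of the 36 collagens between TAC and Sham (x axis) in HCN4F (red circles) and WT (black squares), with bars of 1 standard error from edgeR's fit, names coloured by class. Filled symbols have an adjusted p under 0.05, which 26 collagens reached in HCN4F and 4 in WT, and dashed lines mark log2 fold changes of -1 and 1.

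Type VIII collagen, which forms an open network and is produced by vascular and other mesenchymal cells, changed the most among the classes. Col8a1 (chr16:57624258-57754737, minus strand) stood at 13.6, 11.2, 12.8 and 12.9 CPM in WT-Sham replicates 1 to 4 and at 14.8, 21.1, 21.7 and 20.3 in HCN4F-Sham. The WT-TAC libraries reached 27.5 and 33.4, and HCN4F-TAC replicates 1 to 4 reached 78.4, 86.7, 43.5 and 68.9. The 4 groups thus followed each other without overlap, with WT-Sham lowest and HCN4F-TAC highest. Its log2 fold change after TAC was 1.83 in HCN4F (a 3.56-fold rise, standard error 0.18, edgeR adjusted p = 4.36e-05) and 1.27 in WT (2.42-fold, standard error 0.22, edgeR adjusted p = 0.00959). Col8a1 was the only collagen called higher after TAC in both genotypes. In WT the call was lost without WT-TAC replicate 3 (log2 fold change 1.13, adjusted p = 0.181).

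Col8a2 (chr4:126286793-126314330, plus strand), the partner chain, was scarce in Sham hearts, with 0.259, 0.689, 0.459 and 0.261 CPM in WT-Sham and 0.715, 0.593, 0.687 and 0.453 in HCN4F-Sham. It was 0.534 and 0.801 in WT-TAC and 2.36, 5.83, 1.02 and 6.63 in HCN4F-TAC replicates 1 to 4. All HCN4F-TAC libraries lay above all others, with a wide spread among themselves, from 29 to 177 counts. The log2 fold change in HCN4F was 2.70 (6.48-fold, standard error 0.51, edgeR adjusted p = 0.00355), the largest of the 36, and in WT it was 0.71 with a standard error of 0.75 (adjusted p = 0.615), where the groups overlapped. The ratio of Col8a1 to Col8a2 per kilobase was 19.0, 8.53, 24.3 and 5.96 in HCN4F-TAC replicates 1 to 4.

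Among fibrillar chains, Col1a1 (chr11:94936224-94953042, plus strand), the main chain of type I collagen, was 163, 157, 153 and 158 CPM in WT-Sham and 154, 206, 131 and 130 in HCN4F-Sham. It was 200.5 and 174 in WT-TAC and 351, 417, 216 and 383 in HCN4F-TAC. Every HCN4F-TAC library exceeded every other library, with replicate 3 only just above HCN4F-Sham replicate 2. The rise in HCN4F was 1.14 on the log2 scale (standard error 0.18, edgeR adjusted p = 0.00125), and the value in WT was 0.25 (standard error 0.22, adjusted p = 0.536).

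Col3a1 (chr1:45311538-45349706, plus strand), the chain of type III collagen, was 202, 206, 218 and 199 CPM in WT-Sham, 208, 246, 166 and 156 in HCN4F-Sham, 253 and 199 in WT-TAC and 449, 447, 246 and 409 in HCN4F-TAC. HCN4F-TAC replicate 3 met the highest HCN4F-Sham library almost exactly, and the other 3 lay far above. Col3a1 rose in HCN4F with an adjusted p of 0.00252 in the edgeR test and missed the call only because its log2 fold change, 1.00 after rounding (standard error 0.18), fell just under the limit. Its value in WT was 0.13 (standard error 0.22, adjusted p = 0.761).

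Col5a2 (chr1:45374321-45503282, minus strand), a chain of type V collagen that sits inside type I fibrils, neighbours Col3a1 with a gap of 24614 bases. It was 24.1, 25.7, 26 and 25.3 CPM in WT-Sham, 23.2, 28.7, 25.8 and 23.8 in HCN4F-Sham, 35.7 and 30.3 in WT-TAC and 56.1, 66.5, 37.9 and 57.5 in HCN4F-TAC. Here both TAC groups lay above all Sham libraries and HCN4F-TAC above WT-TAC. The rise in HCN4F was 1.10 on the log2 scale (standard error 0.13, edgeR adjusted p = 8.23e-05), and in WT the value was 0.38 (standard error 0.16, adjusted p = 0.163). Without HCN4F-TAC replicate 2 the log2 fold change in HCN4F was 0.99, under the limit of the call (adjusted p = 0.000239).

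Col11a1 (chr3:114030540-114220718, plus strand), best known as a cartilage fibril chain, was barely detected outside HCN4F-TAC. Its counts were 2, 1, 2 and 2 in WT-Sham, 1, 5, 1 and 5 in HCN4F-Sham, 2 and 0 in WT-TAC and 15, 14, 5 and 19 in HCN4F-TAC. Replicate 3 of HCN4F-TAC did not exceed the highest HCN4F-Sham counts. The edgeR fit gave a log2 fold change of 2.14 in HCN4F (standard error 0.56, adjusted p = 0.0174), which rests on these few counts and was lost without HCN4F-TAC replicate 4 (1.87, adjusted p = 0.0589). No fold is given against the WT libraries, where every count was at or under 3. Because Col11a1 passed the filter through its HCN4F-TAC counts, its call and its place in the counts of collagens below give no support to a difference. Of the remaining fibrillar chains, Col1a2 (0.90) and Col5a1 (0.74) rose in HCN4F by the adjusted p, while Col5a3, Col11a2 and Col27a1 did not pass.

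The FACIT class held the largest share of called chains after the network class. Col12a1 (chr9:79598991-79718831, minus strand), which bridges type I fibrils and their surroundings, was 1.15, 1.31, 1.11 and 0.425 CPM in WT-Sham and 1.17, 1.83, 0.94 and 1.78 in HCN4F-Sham. It was 1.73 and 1.77 in WT-TAC and 5.39, 7.57, 2.37 and 7.16 in HCN4F-TAC. All 4 HCN4F-TAC libraries were above all others, and the WT-TAC libraries were above WT-Sham but within the range of HCN4F-Sham. The rise in HCN4F was 1.98 on the log2 scale (3.93-fold, standard error 0.35, edgeR adjusted p = 0.0022), and in WT the value was 0.83 (standard error 0.47, adjusted p = 0.323).

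Col14a1 (chr15:55307750-55520803, plus strand), another fibril-surface chain and the most abundant FACIT per kilobase, was 11.7, 11.1, 11.9 and 12.5 CPM in WT-Sham, 9.22, 14.4, 14.4 and 9.66 in HCN4F-Sham, 16.2 and 13.5 in WT-TAC and 25.2, 40.5, 17.0 and 28.8 in HCN4F-TAC. HCN4F-TAC lay above all other libraries. Its log2 fold change in HCN4F was 1.23 (standard error 0.22, edgeR adjusted p = 0.003), and 0.99 without HCN4F-TAC replicate 2 (adjusted p = 0.00472), where the call was lost.

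Col9a2 (chr4:121039385-121055322, plus strand), a chain of the cartilage FACIT type IX, was rare, with 1 to 11 counts in Sham libraries, 12 and 11 in WT-TAC and 25, 30, 12 and 27 in HCN4F-TAC. In CPM, HCN4F-TAC was 1.04, 0.988, 0.424 and 1.10, HCN4F-Sham 0.301, 0.320, 0.108 and 0.0302, and WT-Sham 0.259, 0.181, 0.421 and 0.163. The HCN4F groups did not overlap and the log2 fold change was 2.29 (standard error 0.48, edgeR adjusted p = 0.00479). HCN4F-TAC replicate 3 fell within the range of WT-TAC, which was 0.493 and 0.315. Of 6 markers of cartilage or valve cells, Acan rose (background 7.2%) and Cnmd fell (6.41%) in HCN4F by the adjusted p of the edgeR test, and 1 did not pass. Cnmd also fell in WT (background 1.62%), where the other tested markers did not pass. Hapln1, Matn1 and Matn3 held at most 3 counts in any library.

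Col22a1 (chr15:71795795-72034227, minus strand), a FACIT of tissue junctions, was 1.53, 2.24, 0.918 and 2.6 CPM in HCN4F-TAC and 0.828, 0.548, 0.795 and 1.12 in HCN4F-Sham, with overlap. In WT it was 1.73 and 0.716 after TAC and 0.776, 1.63, 0.994 and 1.54 in Sham, also with overlap. Its call in HCN4F (log2 fold change 1.12, standard error 0.36, edgeR adjusted p = 0.0481) was lost without any single library among WT-Sham replicates 2, 3 and 4, HCN4F-Sham replicates 1, 2 and 3 and HCN4F-TAC replicates 1, 2 and 4, with adjusted p between 0.0543 and 0.14. Col16a1, the second most abundant FACIT, was 9.24, 7.8, 7.46 and 8.53 CPM in WT-Sham, 10.2, 12.9, 7.85 and 9.09 in HCN4F-Sham, 9.90 and 9.67 in WT-TAC and 17.2, 19.9, 11.0 and 22.7 in HCN4F-TAC, and rose in HCN4F by 0.82 on the log2 scale (standard error 0.19, edgeR adjusted p = 0.00917).

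Col20a1 was the FACIT chain that fell in HCN4F, by a log2 value of -0.91 (standard error 0.28, edgeR adjusted p = 0.0412) that stayed short of the call. It was 0.788, 1.12, 0.777 and 1.14 CPM in HCN4F-TAC against 1.2, 3.01, 1.34 and 1.75 in HCN4F-Sham. In WT it was 0.945 and 0.916 after TAC against 1.11, 1.49, 1.89 and 1.96 in Sham, a log2 difference of -0.80 (standard error 0.35, adjusted p = 0.197). The libraries did not overlap in either genotype.

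**Figure D4:**
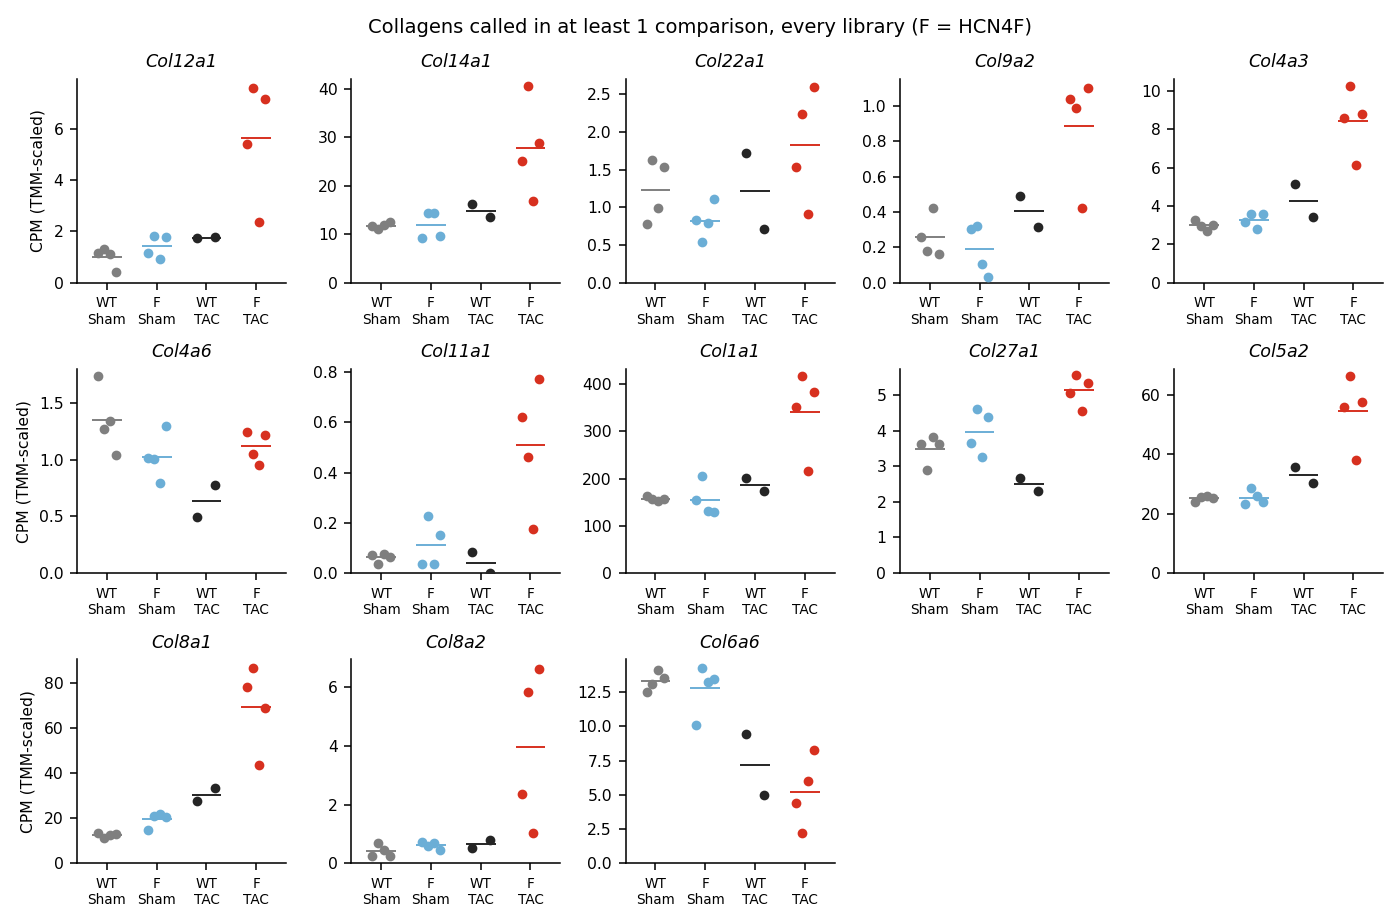
CPM (y axis, from 0) of the 13 collagens called in at least 1 comparison in each of the 14 libraries, with a line at each group mean. In 11 panels the HCN4F-TAC libraries (red) reach the highest value, and Col4a6 and Col6a6 are highest in a Sham library.

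The chains of type IV collagen follow by their head-to-head pairs. The ubiquitous pair Col4a1 and Col4a2 rose together in HCN4F, each by 0.74 on the log2 scale (standard errors 0.11 and 0.10, edgeR adjusted p = 0.000415 and 0.000245). Col4a1 was 676, 685, 641 and 658 CPM in WT-Sham, 588, 787, 531 and 581 in HCN4F-Sham, 843 and 907 in WT-TAC and 1044, 1113, 854 and 1150.1 in HCN4F-TAC. Col4a2 was 518, 519, 493 and 498 CPM in WT-Sham, 481, 602, 431 and 446 in HCN4F-Sham, 689 and 751 in WT-TAC and 796, 903, 685 and 894 in HCN4F-TAC. For both chains the TAC libraries lay above all Sham libraries, and the 2 genotypes overlapped after TAC. In WT, Col4a2 rose by 0.51 (standard error 0.12, edgeR adjusted p = 0.0319), while Col4a1 had a value of 0.40 (standard error 0.13, adjusted p = 0.0943). Neither side of the threshold was stable. Col4a2 did not pass without any 1 of the 6 WT libraries (edgeR adjusted p = 0.0544 to 0.292) or with the replicate block (0.0643), and Col4a1 passed with edgeR on the WT groups alone (adjusted p = 0.00328), with DESeq2 on all groups (0.043) or on the WT groups (1.69e-06), without a filter (0.0247) and without HCN4F-Sham replicate 2 (0.029). The ratio of Col4a1 to Col4a2 per kilobase stayed between 1.07 and 1.17 in all 14 libraries.

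Col4a3 (chr1:82586921-82722059, plus strand), a chain of the more specialised basement membranes known from kidney, was 3.29, 2.97, 2.68 and 3.01 CPM in WT-Sham, 3.16, 3.61, 2.78 and 3.59 in HCN4F-Sham, 5.13 and 3.43 in WT-TAC and 8.58, 10.2, 6.11 and 8.79 in HCN4F-TAC. HCN4F-TAC lay above all other libraries, replicate 3 included. The rise in HCN4F was 1.36 on the log2 scale (2.57-fold, standard error 0.16, edgeR adjusted p = 6.98e-05), and it was called under every leave-one-out fit. In WT the value was 0.50 (standard error 0.20, adjusted p = 0.155). Some 5.65% of the exon bases of Col4a3 are shared with a gene on the opposite strand, and whether counting used strand was not given. Its partner Col4a4 rose by 0.78 in HCN4F. The ratio of Col4a3 to Col4a4 per kilobase was 0.353 to 0.435 in WT-Sham, 0.374 to 0.485 in HCN4F-Sham, 0.518 and 0.473 in WT-TAC and 0.605 to 0.731 in HCN4F-TAC, so the HCN4F-TAC libraries stood apart from all others in this ratio too.

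Col4a5 rose in both genotypes, by 0.71 in HCN4F (standard error 0.09, edgeR adjusted p = 0.000168) and 0.65 in WT (standard error 0.11, edgeR adjusted p = 0.00696). The WT value did not pass without WT-TAC replicate 2 (0.61, adjusted p = 0.0535) or 3 (0.69, adjusted p = 0.0993). Its levels after TAC were 33.4 and 31.7 CPM in WT and 35.1, 35.6, 33.2 and 31.1 in HCN4F, against 17.0 to 23.2 over the 8 Sham libraries. In this chain HCN4F-TAC replicate 3 was not the lowest of its group. Col4a6 (chrX:141165403-141474076, minus strand), its neighbour, was 1.74, 1.27, 1.34 and 1.05 CPM in WT-Sham and 0.493 and 0.773 in WT-TAC, without overlap, and 1.24, 1.05, 0.954 and 1.22 in HCN4F-TAC against 1.02, 1, 0.795 and 1.3 in HCN4F-Sham, with overlap. It was called lower in WT at -1.05 on the log2 scale (standard error 0.29, edgeR adjusted p = 0.0489), a call lost without any single WT-Sham or WT-TAC library (log2 fold changes of -1.44 to -0.79, adjusted p = 0.0699 to 0.275) and without HCN4F-TAC replicate 1, 2 or 4 (adjusted p = 0.0551 to 0.0598). In HCN4F its value was 0.11 (adjusted p = 0.802). Col15a1 and Col18a1, basement membrane chains whose ends release anti-angiogenic fragments, rose in HCN4F by 0.81 and 0.76.

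**Figure D5:**
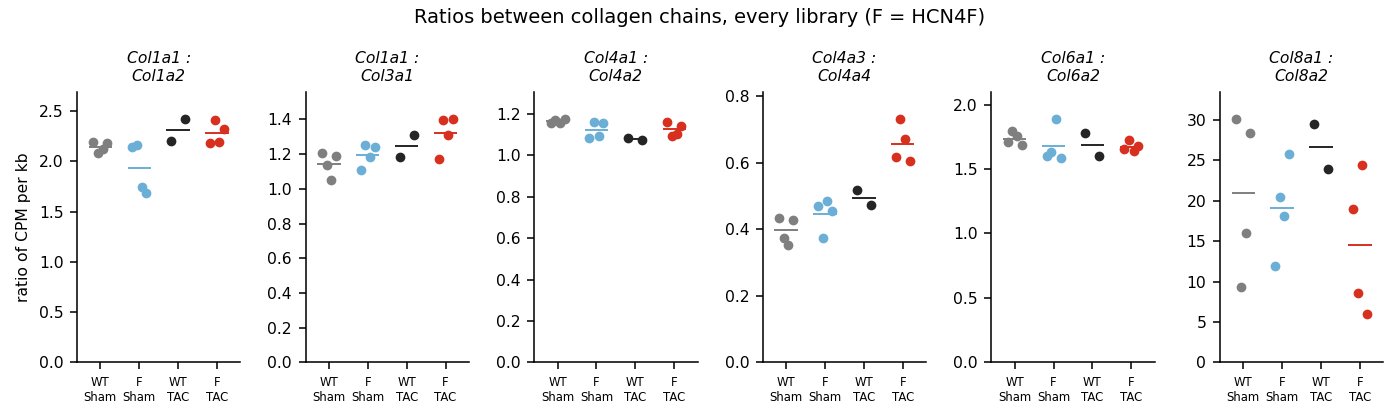
Ratio of the levels per kilobase of exon (y axis, from 0) for 6 chain pairs in every library, with a line at each group mean. For Col4a3 to Col4a4 the HCN4F-TAC libraries lie between 0.605 and 0.731 and above the 10 other libraries, while Col4a1 to Col4a2 stays between 1.07 and 1.17 throughout.

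In the class of others, the type VI chains, which form beaded filaments around cells, went in different directions. Col6a1, Col6a2 and Col6a3 rose in HCN4F by 0.72, 0.71 and 0.80 (edgeR adjusted p = 0.00538, 0.00481 and 0.00107). Col6a1 was 92.8, 96.4, 90.6 and 92.3 CPM in WT-Sham, 90.2, 118, 88 and 79.9 in HCN4F-Sham, 110.2 and 87.6 in WT-TAC and 158, 185, 106 and 170.3 in HCN4F-TAC. Col6a2 was 103, 102, 98.1 and 104 CPM in WT-Sham, 107, 137, 88.7 and 95.8 in HCN4F-Sham, 118 and 104 in WT-TAC and 182, 204, 123 and 193 in HCN4F-TAC. In both, HCN4F-TAC replicate 3 lay below HCN4F-Sham replicate 2. Col6a6 (chr9:105687809-105828160, minus strand) was the reverse, with 12.5, 13.1, 14.1 and 13.6 CPM in WT-Sham, 10.1, 14.3, 13.3 and 13.5 in HCN4F-Sham, 9.41 and 5.01 in WT-TAC and 4.40, 2.24, 6.0 and 8.30 in HCN4F-TAC. Every TAC library lay below every Sham library. The fall in HCN4F was -1.30 on the log2 scale (standard error 0.30, edgeR adjusted p = 0.0122), and in WT the value was -0.90 (standard error 0.36, adjusted p = 0.168). Col13a1, a transmembrane collagen, also fell in HCN4F by the adjusted p, at -0.93 on the log2 scale (standard error 0.23, edgeR adjusted p = 0.0145). The other 5 did not pass (Col7a1, Col23a1, Col25a1, Col26a1 and Col28a1). Of the named chains, Col12a1 and Col6a6 lie on chromosome 9 with Hcn4, at 20.8 and 46.9 megabases from it, as do Col5a3 and Col7a1. Col12a1 was number 335 by distance from Hcn4 among 876 tested genes of that chromosome.

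In WT hearts, TAC against Sham called 1 of the 36 collagens higher, Col8a1 (background 0.445%), and 1 lower, Col4a6 (background 0.262%), and by the adjusted p alone 3 rose (background 2.92%) and 1 fell (1.62%). The 3 were Col8a1, Col4a5 and Col4a2. This count of 3 became 8 of 32 with edgeR on the WT groups alone (background 8.65%), 6 with DESeq2 on the WT groups (background 9.74%), 1 without WT-TAC replicate 2 (background 0.767%) and 0 without replicate 3 (background 0.0568%). The median log2 fold change was 0.11, against -0.02 over all tested genes, and it was -0.02 without WT-TAC replicate 2 and 0.28 without replicate 3. This comparison sets 2 libraries against 4. Libraries without overlap were found for 13 collagens higher after TAC (36.1%, background 19.2%) and 7 lower (19.4%, background 20%). In HCN4F, with 4 against 4, it was 14 higher (38.9%, background 7.95%) and 3 lower (8.33%, background 7.16%). Of the 36 collagens, 28 had the same sign in both genotypes (77.8%), against 67.9% of all tested genes. These 2 comparisons share no library.

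Whether the genotypes differed after TAC was the next question. HCN4F-TAC against WT-TAC called 1 collagen, Col27a1, higher (background 0.0392%) and none lower (background 0.0327%). At an unadjusted p under 0.05, 21 were higher (58.3%, background 7.45%) and none lower (background 5%). Without WT-TAC replicate 3 the 21 became 13 (background 5.84%). The median log2 fold change was 0.65, against 0.00 over all tested genes. HCN4F-TAC lay above WT-TAC without overlap for 16 collagens (44.4%, background 11.3%), and for none below (background 11%). DESeq2 fitted on all groups called 4 higher (Col8a1, Col8a2, Col12a1 and Col27a1), where it called 0.467% of all genes with an adjusted p higher. Without HCN4F-TAC replicate 3, the edgeR fit called 10, which were Col1a1, Col1a2, Col4a3, Col8a1, Col8a2, Col11a1, Col12a1, Col14a1, Col16a1 and Col27a1, all higher, and the background in that fit was 0.895%. Without WT-TAC replicate 2 or 3, or HCN4F-TAC replicate 2 or 4, none was called. The number of collagens called between the genotypes after TAC thus hung on single libraries.

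Col27a1 (chr4:63214004-63334991, plus strand), a fibrillar chain known from cartilage, was 3.62, 2.90, 3.82 and 3.63 CPM in WT-Sham and 2.67 and 2.32 in WT-TAC, and 3.65, 4.61, 3.25 and 4.38 in HCN4F-Sham and 5.06, 5.56, 4.56 and 5.33 in HCN4F-TAC. WT-TAC was below every other library, and HCN4F-TAC replicate 3 was just under the highest HCN4F-Sham library. The log2 fold change between the genotypes after TAC was 1.05 (2.06-fold, standard error 0.18, edgeR adjusted p = 0.0217). Neither TAC response passed by itself, with 0.37 in HCN4F (standard error 0.13, adjusted p = 0.079) and -0.49 in WT (standard error 0.18, adjusted p = 0.115). The call was lost without WT-TAC replicate 2 (1.14, adjusted p = 0.223) or 3 (0.94, adjusted p = 0.184) and without HCN4F-TAC replicate 2 (0.99, adjusted p = 0.0796) or 4 (1.03, adjusted p = 0.0581).

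For the other named chains the genotype difference after TAC did not pass in this edgeR fit, while by the adjusted p alone DESeq2 passed 14 of the 36 collagens with every group in the fit (all higher, background 1.13%) and 13 with the TAC groups only (all higher, background 0.908%). The log2 difference was 1.19 for Col8a1 (standard error 0.22, edgeR adjusted p = 0.0728), 0.99 for Col4a3 (standard error 0.20, adjusted p = 0.0728) and 2.53 for Col8a2 (standard error 0.64, adjusted p = 0.139). Col12a1 had 1.68 (standard error 0.44, adjusted p = 0.145) and Col1a1 0.87 (standard error 0.23, adjusted p = 0.15). In all 5 the HCN4F-TAC libraries lay above both WT-TAC libraries. Smaller values were found for Col4a1 (0.25), Col4a2 (0.19) and Col4a5 (0.05), in which the libraries overlapped. Approximate 95% intervals of those 3 differences reached from -0.02 to 0.52, from -0.06 to 0.44 and from -0.17 to 0.28.

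In Sham hearts no collagen was called between the genotypes in either direction (background 0.085% higher and 0.124% lower), by edgeR or by DESeq2. At an unadjusted p under 0.05 in the edgeR test, 1 was higher in HCN4F (background 7.93%) and none lower (7.27%). The median log2 fold change was 0.01, against 0.00 over all tested genes. The 1 was Col8a1, whose HCN4F-Sham libraries all exceeded the WT-Sham libraries, at 0.63 on the log2 scale (standard error 0.19, edgeR adjusted p = 0.138). Its adjusted p was 0.0359 with edgeR on the Sham groups alone, 0.0276 with DESeq2 on all groups and 0.000543 with DESeq2 on the Sham groups, and 0.0242 to 0.284 when single libraries were left out of the edgeR fit. It was also the only collagen without overlap between the Sham groups (2.78%, background 3.89% higher and 4.67% lower). For the main fibrillar chains the approximate 95% intervals of the Sham difference were -0.37 to 0.33 for Col1a1 and -0.44 to 0.26 for Col3a1. Col5a3, a further type V chain, split the HCN4F-Sham group, at 52.9 and 41.5 CPM in replicates 1 and 2 and 20.7 and 17.5 in replicates 3 and 4, against 45.0 to 50.8 in WT-Sham.

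Whether TAC acted differently in HCN4F than in WT was also tested directly. In the interaction no collagen passed an adjusted p of 0.05 by edgeR (background 0% in either direction) or by DESeq2 on all groups (background 0.176% higher and 0.107% lower in HCN4F), and the smallest edgeR adjusted p was 0.394, for Col27a1. At an unadjusted p under 0.05 there were 18 collagens with the larger value in HCN4F (background 4.88%) and none with the larger value in WT (4.39%). The 18 became 6 without WT-TAC replicate 3 (background 3.65%), 12 without HCN4F-TAC replicate 2 (background 3.3%) and 23 without HCN4F-TAC replicate 3 (background 6.99%). The median difference was 0.59 on the log2 scale, against 0.01 over all tested genes. By class it was 0.76 for fibrillar, 0.65 for basement membrane, 0.90 for FACIT, 1.27 for network and 0.21 for other chains. Without HCN4F-TAC replicate 3, 5 passed with the larger value in HCN4F (Col1a1, Col1a2, Col3a1, Col5a2 and Col6a3), where 0.392% of all genes did. Under the other single-library omissions none did.

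Genes that make, secrete and bind collagen were followed as lists. Of 20 genes for folding and modification of the chain, 6 rose in HCN4F after TAC by the adjusted p (background 7.2%) and 1 fell (6.41%), and none passed in WT (background 2.92% higher and 1.62% lower). The same backgrounds hold for the other lists. P4ha3, a prolyl hydroxylase subunit that stabilises the helix, rose by 2.62 on the log2 scale (standard error 0.57, edgeR adjusted p = 0.00608) on only 1 to 20 counts per library, and P3h2, a prolyl hydroxylase of type IV collagen, by 1.04 (standard error 0.14, edgeR adjusted p = 0.000236). The others that rose were P4ha1, P4ha2, P3h3 and Serpinh1, the collagen chaperone, and P3h4 fell. Of 13 tested genes for secretion and propeptide removal, 6 rose in HCN4F, among them Adamts2 (0.76), Sparc (0.68) and Pcolce (0.53), and Sec23a in both genotypes. Of 11 tested receptors, 4 rose in HCN4F (Ddr1, Itga11, Itgb1 and Mrc2) and Ddr1 also in WT. The median log2 fold changes in HCN4F were 0.24, 0.25 and 0.24 for the 3 lists, below the 0.74 of the collagens and above the -0.01 of all tested genes. Between the genotypes after TAC none of these genes passed, and in Sham hearts P4ha2 was lower in HCN4F by the adjusted p, at -0.43 on the log2 scale (standard error 0.08, edgeR adjusted p = 0.0282). For background, the edgeR fit on genes with 10 counts in 2 libraries passed 0.0581% of genes higher and 0.0516% lower after TAC. In Sham hearts that fit passed 0.226% in each direction.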

How the data were processed

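RNA was poly(A)-selected from frozen left ventricle and sequenced on an Illumina platform. The authors deposited raw counts, whole numbers of reads per gene, on GRCm38 per the submitters' processing notes. Which aligner, counter, annotation and strand setting were used is not given in the sources used here. Groups and replicate numbers came from the sample labels. The study describes 16 samples, of which 14 were analysed here. Another 2 library columns, named as WT and TAC, could not be matched to a sample label and were not used.

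Genes were filtered with edgeR's filterByExpr, which left 15292, and scaled with TMM in edgeR 4.0.16 (R 4.3.3). All groups entered 1 robust quasi-likelihood fit, and p-values were adjusted after Benjamini and Hochberg across the genes tested. Calls needed an adjusted p under 0.05 and a log2 fold change past 1, and the interaction the adjusted p alone. The thresholds of the calls are those of the study, which used DESeq2 and whose methods name no interaction test. CPM are counts scaled to a library size of 1000000 after TMM, and CPM per kilobase divides by the exon length in GENCODE mouse release 21 (GRCm38). Intervals are the log2 fold change with its standard error under a normal approximation.

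Values in every library are given for collagens called in any of the 4 comparisons, for the 2 most abundant per kilobase of each class and for Col8a1, Col8a2 and Col12a1, which the study names, and single further chains (Col4a5, Col5a3, Col20a1) were added after their values were seen. The result of 1 marker list is not reported here. The collagens, lists and tests were chosen with earlier results of these data known. Replicate number was not treated as a pairing of the samples in the main fit. Alternatives were DESeq2 1.42.0, edgeR on the compared groups, DESeq2 size factors, 3 other filters, non-robust estimation, the adjusted p alone, the replicate number as a block and leaving out each library.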

Additional observations from a re-analysis of the deposited data

Results flagged for a closer look

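Among 78 sets of 4 values screened (19 named collagens, 6 chain ratios and the summed level in the groups of 4), 2 held a sample far from the others by Dixon's test, where chance gives about 1 in 20. In HCN4F-TAC, replicate 3 had 0.424 CPM of Col9a2, and the other 3 libraries 0.988 to 1.10. In HCN4F-Sham, replicate 3 had a ratio of Col6a1 to Col6a2 per kilobase of 1.89, and the group's lowest was 1.59.

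Col27a1 differed in direction between the genotypes. Both WT-TAC libraries lay below the WT-Sham mean and all 4 HCN4F-TAC libraries above the HCN4F-Sham mean, and the difference of the responses was 0.86 on the log2 scale (standard error 0.22, unadjusted p = 0.00125, adjusted p = 0.394 in the edgeR interaction test). It did not pass the adjustment over all tested genes.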

How the results depend on the processing

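For HCN4F, 11 collagens were called after TAC, and 8 to 13 when single libraries were left out. By the adjusted p alone it was 26. For WT, the 2 calls became 1 under DESeq2 on the compared groups, no filter and the replicate block, 4 by the adjusted p alone and 0 to 2 without single libraries. Between the genotypes after TAC, the 1 call became 4 under DESeq2 on all groups, 3 under DESeq2 on the compared groups, 0 under edgeR on the compared groups, 2 without a filter, 2 with non-robust estimation, 0 with the replicate block and 0 to 10 without single libraries. In Sham hearts the count stayed at 0 under all alternatives. For the interaction it was 0 to 5 without single libraries and 0 under the rest. The cause of these shifts was not tested. Replicate number was not treated as a pairing of the samples in the main fit. In their deviations from group means, same-numbered libraries of different groups correlated at -0.12 to 0.159 (median -0.00, n = 18). For differently numbered ones it was -0.239 to 0.201 (median 0.01, n = 54). These values cannot settle whether samples were paired, because the deviations of the 2 WT-TAC libraries mirror each other. No call on a named collagen changed direction under any alternative in the comparison where it was made. The summed collagen level of WT-Sham was 2218 CPM without TMM and 2277 with it. The median log2 fold change of the collagens after TAC in HCN4F lay between 0.67 and 0.87 over all alternatives. With 2 libraries, WT-TAC limits every comparison that holds it, and chains under 1 CPM (Col8a2, Col9a2 and Col11a1 in Sham hearts) rest on few counts.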
